A study of Mus musculus with 20 samples.

Results

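Fatty acid oxidation in hepatocytes was followed here through 30 genes of mitochondrial beta-oxidation and ketogenesis, taken by symbol from a count table of 50559 genes, and every one of them was found there and passed the low count filter in each comparison. The 20 liver samples came from mice homozygous for a floxed *Cideb* allele, in which loxP sites flank exon 2 of this lipid droplet gene, so WT and KO mice alike carried the floxed allele and had been injected with an adeno-associated virus. WT mice received AAV-TBG-GFP and KO mice AAV-TBG-Cre, where TBG is a promoter active in hepatocytes, so deletion was directed to hepatocytes and the other cells of a KO liver kept *Cideb*. The mice were fed either a Western diet (WD) or CDA-HFD, a high-fat diet that lacks choline and has defined amino acids, for 3 months by the labels (the study's methods give a longer time for WD), which gave 5 livers in each of 4 groups (WT on WD, KO on WD, WT on CDA-HFD and KO on CDA-HFD). The study measured these genes to ask whether loss of *Cideb* goes with a change in hepatic fatty acid oxidation.

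Long-chain fatty acids are activated to acyl-CoA by synthetases, passed into mitochondria by the carnitine shuttle, and shortened there by repeated rounds of dehydrogenation, hydration, a second dehydrogenation and thiolysis. Electrons from the first step reach the respiratory chain through the electron transfer flavoprotein. In liver, part of the acetyl-CoA is turned into ketone bodies and exported, and the nuclear receptor PPARα is a well known activator of many of these genes during fasting.

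Sequences are shown first because a pair of members start next to each other. A nuclear receptor half-site was also searched for near the starts, and it was found about as often as in all promoter windows. Coordinates are those of GRCm38, the assembly also called mm10 that the submitters' processing notes name, with genes from GENCODE vM21 and promoter windows, from 250 bases before to 50 bases after a start, from RefSeq (GRCm38.p6). *Hadha* and *Hadhb*, which encode the alpha and beta subunits of the trifunctional protein, lie head to head on chromosome 5 (*Hadha* at chr5:30118304-30155162 on the minus strand, *Hadhb* at chr5:30155248-30184593 on the plus strand) with 85 bases between them. These 85 bases (chr5:30155163-30155247, plus strand) are 69.4% G or C, and capitals mark the letters GGGCGG, the core of the GC box of many promoters without a TATA box.
Between *Hadha* and *Hadhb*: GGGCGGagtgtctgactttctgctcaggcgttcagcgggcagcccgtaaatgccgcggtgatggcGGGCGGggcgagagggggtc
The letters GGGCGG were in 17 of the 29 windows that matched 27 of the 30 genes (58.6%), and in 35.7% of all 32851 windows, on either strand.

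The nuclear receptor half-site AGGTCA, on either strand, was in 5 of those 29 windows (17.2%), beside 16.3% of all windows. The 5 stretches below show where it stands, with the half-site in capitals (read as TGACCT where it lies on the opposite strand) and up to 12 bases on each side.
*Cpt1a* (chr19:3323195-3323224, plus strand, first letter of the half-site 94 bases before the start): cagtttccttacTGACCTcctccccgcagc
*Acadvl* (chr11:70015498-70015527, minus strand, 87 bases before): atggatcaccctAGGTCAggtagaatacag
*Acsm1* (chr7:119617693-119617722, plus strand, 107 bases before): tgcactgttttcTGACCTcttgactaaacg
*Echs1* (chr7:140116487-140116516, minus strand, 83 bases before): accagcccgctcAGGTCAcgggtccacccc
*Acadm* (chr3:153944875-153944893, minus strand, 249 bases before, cut short by the edge of the window): gTGACCTtcgggctccggt
The longer TNAAGGTCA was in 0 of the 29 windows, beside 1.28% of all windows, and a direct repeat of the half-site in the loose form AGGNCA, with its copies spaced by 1 base as PPARα binding sites have it, was in 0 of 29, beside 0.381% of all. These are matches of letters in short windows, and sites elsewhere in a gene were not searched. The starts used for the windows are those of RefSeq. In GENCODE, *Acsm1* begins at chr7:119607026 and *Cpt1a* at chr19:3322334, so their stretches lie inside the GENCODE genes. The medium-chain synthetase genes *Acsm5*, *Acsm1* and *Acsm3* lie in that order on chromosome 7, all on the plus strand, 61474 and 98407 bases apart, with their relatives *Acsm2* and *Acsm4* in between, and reads of such related genes may be shared.

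Read depth lay between 11697049 and 16827147 reads on genes per liver. Values per liver are given as counts per 1000000 reads on genes after TMM scaling (CPM), always in the order of livers 1 to 5. *Cideb* read 4.77, 6.52, 7.56, 5.15 and 6.27 CPM in WT livers and 0, 0.388, 0, 0.152 and 0.235 in KO livers on WD, and 2.22, 3.59, 2.75, 3.82 and 2.85 and 0.209, 0, 0.398, 0.147 and 0.0598 on CDA-HFD, so each library matched the virus its label names. These values do not check the diet. Its log2 fold change in KO livers was -5.12 on WD and -4.19 on CDA-HFD (adjusted p = 0.000541 and 0.00279). The 8 hepatocyte markers summed to between 39743 and 110413 CPM over all 20 livers. The labels number the samples of a group without saying that each is a separate mouse, so p-values measure only the spread between these samples, which may be technical. Each is called a liver here.

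KO liver 5 on CDA-HFD stood apart from the other KO livers of that diet. On the first principal component of the 10 CDA-HFD livers, which held 61.4% of the variance, it lay at -41.4, inside the WT range of -63.1 to -7.24, while KO livers 1 to 4 lay between 42.7 and 65.5. It was the lowest of its group in 29 of the 30 genes and inside the WT range in 25. Most counts of calls, the marker ranges and the values of many named genes whose call turns on this liver are therefore given with and without it. The liver was singled out from these same values, which lie near those of WT livers. Leaving it out therefore tends to widen KO differences and lower p-values, so results without it are not further evidence. Where KO livers 1 to 4 are said to lie above every WT liver, the share of all genes with that arrangement was not computed. That arrangement is therefore not read as particular to the 30 genes. Among WT livers on WD, liver 1 was the lowest in 24 of the 30 genes, and among WT livers on CDA-HFD, liver 5 was the lowest in 23 and liver 4 the highest in 26. The shares over all genes were not computed for these counts, so they are not read as particular to the 30 genes.

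The 30 genes together took 0.880% to 0.975% of the reads on genes in WT livers on WD and 0.976% to 1.12% in KO livers. With CDA-HFD they took 0.491% to 0.727% in WT livers and 0.836% to 0.861% in KO livers 1 to 4, with 0.629% in KO liver 5. The share was thus lower on CDA-HFD than on WD in every liver of either genotype, and KO liver 5 lay among the WT livers of its diet. A sum of reads is weighted by the genes with most reads. On WD the synthetase gene *Acsl1* alone had 15517 to 27364 reads in WT and 22575 to 37976 in KO livers. In KO liver 2 on WD it gave 37976 of the 158499 reads on the 30 genes. The separation of KO from WT livers on WD therefore leans on this gene, and the share without it was not computed. In whole liver, fewer hepatocytes and less RNA per hepatocyte cannot be told apart.

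**Figure D1:**
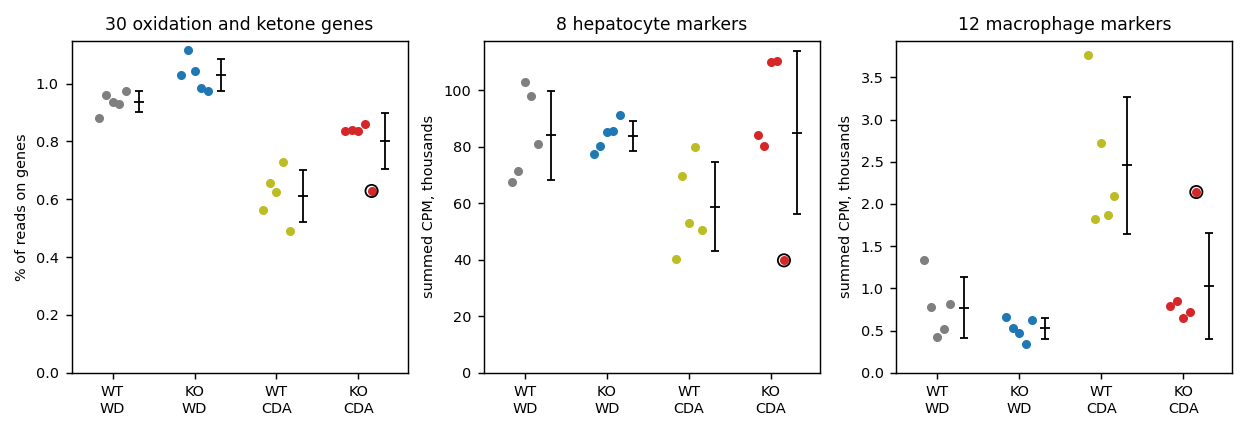
Share of reads on genes taken by the 30 genes (left, percent), and the summed CPM, divided by 1000, of 8 hepatocyte markers (middle) and 12 macrophage markers (right), with 1 point per liver, the mean ± SD of each group of 5 beside the points and KO liver 5 on CDA-HFD ringed. The share was 0.491% to 0.727% in WT livers on CDA-HFD and 0.836% to 0.861% in KO livers 1 to 4, and the ringed liver had a share of 0.629%, 39743 CPM of hepatocyte markers and 2142 CPM of macrophage markers.

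KO livers on CDA-HFD carried more RNA of many beta-oxidation enzymes than WT livers on the same diet. Of the 30 genes, 11 rose and 0 fell at an adjusted p under 0.05, where 7.99% of all 17204 genes tested were called higher, and 29 of 30 log2 fold changes were above 0, with a median of 0.53 beside 0.00 for all genes tested. The 11 were *Slc25a20* of the carnitine shuttle, the synthetases *Acsl1*, *Acsf2* and *Acsm1*, the dehydrogenases *Acadm*, *Acadvl* and *Acad11*, the auxiliary enzymes *Eci1* and *Decr1*, and *Etfb* and *Etfdh* of electron transfer. None of the 5 genes of the hydratase to thiolase steps, the 2 ketone body enzymes or *Acot2*, *Mlycd* and *Ppargc1a* was called. Without KO liver 5, the count was 25 and the median 0.64, where 19.5% of all 17411 genes tested were called higher, with *Cpt1a*, *Hadhb*, *Acat1*, *Acot2* and *Ppargc1a* uncalled. The count was 0 without any single one of WT livers 1, 3 and 5 or KO livers 1, 2, 3 and 4, and it was 4 without WT liver 2 and 14 without WT liver 4, while the median stayed between 0.44 and 0.64. Over all genes, the fits that left out 1 liver gave 680 to 7178 calls.

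Markers of other cells moved with this comparison. Of 12 macrophage markers, 4 were lower in KO livers and 0 higher, and their sum was 1825 to 3764 CPM in WT and 644 to 2142 CPM in KO livers. Of 10 stellate cell markers, 2 were lower and 0 higher (2395 to 3883 against 1340 to 4079 CPM), of 8 cholangiocyte markers 0 passed (383 to 819 against 84.9 to 676 CPM), of 8 endothelial markers 0 passed (621 to 714 against 593 to 941 CPM), and of 8 lymphocyte markers 0 passed (9.96 to 17.3 against 9.63 to 24.9 CPM). No marker was at 0 in all livers of a group. The 8 hepatocyte markers had a median log2 fold change of 0.50, with 8 of 8 above 0 and 1 called higher (40352 to 79686 against 39743 to 110413 CPM). Without KO liver 5 the sums of these lists no longer overlapped between the groups, other than that of the lymphocyte markers. KO livers 1 to 4 then had 80294 to 110413 CPM of hepatocyte and 828 to 941 CPM of endothelial markers, both above every WT liver, and 644 to 852 CPM of macrophage, 1340 to 1534 CPM of stellate cell and 84.9 to 192 CPM of cholangiocyte markers, all below every WT liver. In the fit without that liver, 4 of 8 hepatocyte and 5 of 8 endothelial markers were called higher, 8 of 10 stellate cell and 7 of 8 cholangiocyte markers lower, and of 12 macrophage markers 7 lower and 1 higher. Of all genes tested in that fit, 19.5% were called higher and 21.8% lower, and with all livers 7.99% and 7.19%. WT livers 2 and 4, with the lowest macrophage sums of the WT group (1825 and 1874 CPM), were also the WT livers with the highest share of reads on the 30 genes. The part of cell composition in the results on CDA-HFD was not tested.

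**Figure D2:**
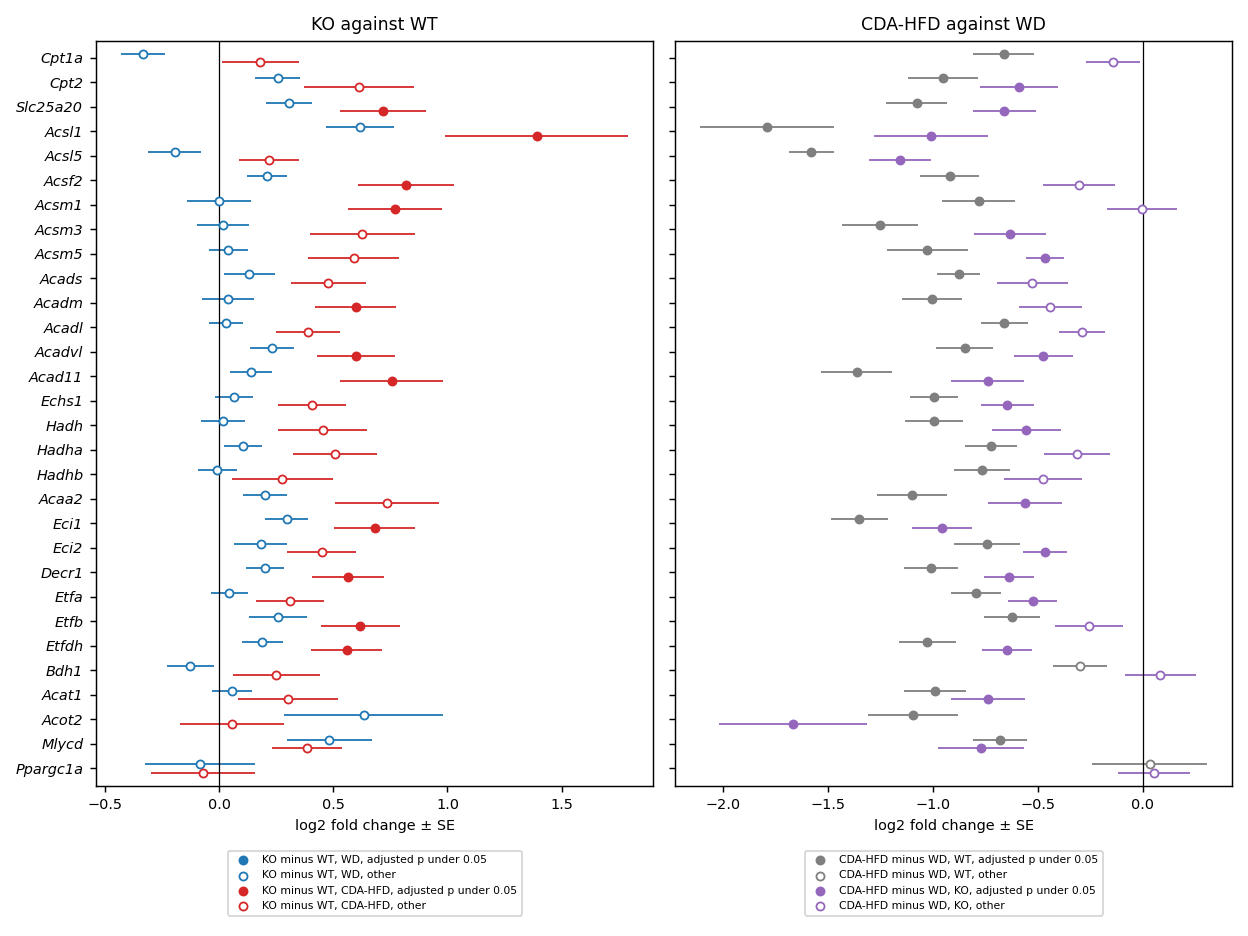
Log2 fold change ± SE of each of the 30 genes, from edgeR, for KO against WT on each diet (left) and CDA-HFD against WD in each genotype (right), with 5 livers per group. Filled points passed an adjusted p of 0.05: 0 genes on WD and 11 on CDA-HFD for KO against WT, and 28 in WT and 19 in KO livers for CDA-HFD against WD.

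On the carnitine shuttle, *Slc25a20*, the exchanger that carries acylcarnitine across the inner membrane, rose, and both carnitine palmitoyltransferases missed the threshold. *Slc25a20* stood at 56.3, 79.9, 72.3, 90.5 and 56.2 CPM in WT livers and 127, 119, 129, 137 and 74.1 CPM in KO livers on CDA-HFD. KO livers 1 to 4 lay above every WT liver and KO liver 5 inside the WT range. *Slc25a20* rose by 0.72 ± 0.19 on the log2 scale (SE; adjusted p = 0.0307), and by 0.85 without KO liver 5 (adjusted p = 0.00100). *Cpt2* measured 56.03, 99.5, 80.9, 103 and 65.9 CPM in WT livers and 154, 129.9, 134, 141 and 64.3 CPM in KO livers on CDA-HFD. *Cpt2*, which returns the acyl group from carnitine to CoA in the matrix, had the same arrangement, with a log2 fold change of 0.61 ± 0.24 (SE; adjusted p = 0.0982), and 0.78 without KO liver 5 (adjusted p = 0.00383). *Cpt1a* came to 537, 761, 671, 873 and 601 CPM in WT livers and 889, 805, 867, 763 and 593 CPM in KO livers on CDA-HFD. *Cpt1a*, the enzyme that commits long-chain acyl groups to the matrix and is inhibited by malonyl-CoA, overlapped widely between the groups, at 0.18 ± 0.17 (adjusted p = 0.466), with a 95% interval of -0.19 to 0.55, and its sign turned when only library size was used for scaling.

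Of the 6 acyl-CoA synthetases, 3 rose and 0 fell. *Acsl1*, which activates long-chain fatty acids and is the main such enzyme of hepatocytes, had the largest fold change of the 30 genes. *Acsl1* read 254, 633, 429, 794 and 249 CPM in WT livers and 1204, 1156, 1292, 2025 and 542 CPM in KO livers on CDA-HFD. The WT livers ranged from 249 to 794 CPM among themselves, and KO liver 5 lay inside that range. *Acsl1* rose by 1.39 ± 0.40 on the log2 scale (SE; adjusted p = 0.0412), and by 1.58 without KO liver 5 (adjusted p = 0.00455). *Acsf2* stood at 86.3, 119, 92.7, 127 and 74.01 CPM in WT livers and 192, 193, 201, 196 and 101 CPM in KO livers on CDA-HFD. *Acsf2*, a synthetase of medium-chain acids, was tightly grouped in KO livers 1 to 4, with liver 5 inside the WT range. *Acsf2* rose by 0.82 ± 0.21 on the log2 scale (SE; adjusted p = 0.0288), and by 0.97 without KO liver 5 (adjusted p = 0.000676). *Acsm1* measured 123, 182, 144, 187 and 103 CPM in WT livers and 282, 247, 306, 269 and 163 CPM in KO livers on CDA-HFD. *Acsm1*, another medium-chain synthetase, again had KO livers 1 to 4 above every WT liver. *Acsm1* rose by 0.77 ± 0.21 on the log2 scale (SE; adjusted p = 0.0329), and by 0.90 without KO liver 5 (adjusted p = 0.00200). Nearby *Acsm5* was the 1 gene of the 30 whose groups did not overlap, at 113.6 to 148 CPM in KO and 48.1 to 112 CPM in WT livers (5.05% of all genes tested were higher in KO livers without overlap), although its log2 fold change of 0.59 missed the threshold (adjusted p = 0.0655). *Acsm3* had 0.63 (adjusted p = 0.0831) and *Acsl5* 0.22 (adjusted p = 0.251). *Acsm5*, *Acsm3* and *Acsl5* passed without KO liver 5 (adjusted p = 0.0264, 0.0239 and 0.0469). About 39.7% of the exon length of *Acsm3* lies on exons of *Eri2* on the opposite strand, and as it is not known whether strand was used in counting, its reads are uncertain.

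The 5 acyl-CoA dehydrogenases, which take the first electrons from acyl chains of different lengths, all had fold changes above 0, and 3 rose. *Acadvl* came to 232, 237, 232, 292 and 171 CPM in WT livers and 367, 409, 396, 352 and 246 CPM in KO livers on CDA-HFD. *Acadvl*, for very long chains, had KO livers 1 to 4 above all WT livers, with liver 5 inside their range. *Acadvl* rose by 0.60 ± 0.17 on the log2 scale (SE; adjusted p = 0.0395), and by 0.71 without KO liver 5 (adjusted p = 0.00255). About 42.9% of its exon length overlaps *Dvl2* on the opposite strand, so its reads are uncertain too. *Acadm* read 179.9, 209, 192, 226 and 148 CPM in WT livers and 318, 309, 313, 329 and 181 CPM in KO livers on CDA-HFD. *Acadm*, for medium chains, showed the same order, with KO liver 5 next to WT liver 1. *Acadm* rose by 0.60 ± 0.18 on the log2 scale (SE; adjusted p = 0.0441), and by 0.73 without KO liver 5 (adjusted p = 0.00105). *Acad11*, a dehydrogenase of very long chains found in mitochondria and peroxisomes, rose by 0.76 ± 0.23 (adjusted p = 0.0465). *Acads* stood at 93.6, 111, 103, 122 and 84.1 CPM in WT livers and 151, 166, 162, 147 and 92.9 CPM in KO livers on CDA-HFD. *Acads*, for short chains, had 4 KO livers above the WT range, and its log2 fold change was 0.48 ± 0.16 (adjusted p = 0.0672; without KO liver 5, 0.60 and 0.00188). *Acadl* measured 153, 182, 174, 198 and 132 CPM in WT livers and 216, 231, 238, 251 and 169 CPM in KO livers on CDA-HFD. *Acadl*, for long chains, also had 4 KO livers above the WT range, at 0.39 ± 0.14 (adjusted p = 0.0771; without KO liver 5, 0.48 and 0.00917). Of the 8 genes of the study's own panel of fatty acid oxidation that are among the 30 (*Acads*, *Acsf2*, *Acsm1*, *Cpt1a*, *Cpt2*, *Acadl*, *Acadvl* and *Acadm*), 4 passed. The study measured these genes by qPCR in livers of the same diets and does not state how they were chosen, so their count is not taken as independent evidence of their direction.

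None of the 5 genes of the later steps passed with all livers. *Acaa2* came to 313, 391, 356, 462 and 230.3 CPM in WT livers and 578, 639, 707, 662 and 340.4 CPM in KO livers on CDA-HFD. *Acaa2*, the thiolase that closes the spiral, lay nearest to the threshold at 0.73 ± 0.23 (adjusted p = 0.0506), and without KO liver 5 it was 0.88 (adjusted p = 0.00277). The paired trifunctional protein genes differed in size, with 0.51 for *Hadha* (adjusted p = 0.0812) and 0.28 for *Hadhb* (adjusted p = 0.389), and the difference between them was not tested. *Hadh*, the short-chain hydroxyacyl-CoA dehydrogenase, had 0.45 (adjusted p = 0.126) and the hydratase *Echs1* 0.41 (adjusted p = 0.0845). *Hadha*, *Hadh* and *Echs1* passed without KO liver 5 (adjusted p = 0.00311, 0.00663 and 0.00919).

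Of the 3 enzymes for double bonds 2 rose, and of the 3 genes of electron transfer 2 rose. *Eci1* read 53.4, 59.5, 53.2, 67.1 and 37.9 CPM in WT livers and 94.8, 85.4, 95.7, 102 and 58.2 CPM in KO livers on CDA-HFD. *Eci1*, an enoyl-CoA isomerase for unsaturated chains, had 4 KO livers above the WT range and liver 5 within it. *Eci1* rose by 0.68 ± 0.18 on the log2 scale (SE; adjusted p = 0.0298), and by 0.80 without KO liver 5 (adjusted p = 0.00124). *Decr1*, the dienoyl-CoA reductase, rose by 0.56 ± 0.16 (adjusted p = 0.0368), and *Eci2* had 0.45 (adjusted p = 0.0645). *Etfb* stood at 136, 122, 115, 144 and 84.6 CPM in WT livers and 188, 213, 222, 169.7 and 134 CPM in KO livers on CDA-HFD. *Etfb*, the beta subunit of the electron transfer flavoprotein, had KO livers 1 to 4 above every WT liver, with liver 5 inside their range. *Etfb* rose by 0.62 ± 0.17 on the log2 scale (SE; adjusted p = 0.0360), and by 0.72 without KO liver 5 (adjusted p = 0.00316). About 53.0% of its exon length is shared with the annotated gene *Gm45233* on the same strand. *Etfdh*, which hands these electrons to ubiquinone, rose by 0.56 ± 0.16 (adjusted p = 0.0376), and *Etfa*, the alpha subunit, had 0.31 (adjusted p = 0.163). *Eci2* and *Etfa* passed without KO liver 5 (adjusted p = 0.0197 and 0.0226).

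The ketone body enzymes and the regulators of the set did not pass on CDA-HFD with all livers. *Acat1* measured 172, 249, 201, 287 and 174 CPM in WT livers and 248, 274, 327, 334 and 157 CPM in KO livers on CDA-HFD. *Acat1*, the acetoacetyl-CoA thiolase, overlapped between the groups, at 0.30 ± 0.22 (adjusted p = 0.342; 95% interval -0.18 to 0.78). *Bdh1*, which interconverts acetoacetate and 3-hydroxybutyrate, had 0.25 (adjusted p = 0.364; 95% interval -0.17 to 0.67). *Mlycd* came to 14.8, 14.99, 12.9, 15.2 and 9.54 CPM in WT livers and 19.6, 20.1, 17.995, 17.3 and 13.3 CPM in KO livers on CDA-HFD. *Mlycd*, which breaks down malonyl-CoA, had 0.38 ± 0.15 (adjusted p = 0.104). *Ppargc1a*, a coactivator of oxidative genes, had -0.07 (95% interval -0.57 to 0.43), and the thioesterase *Acot2* 0.06 (95% interval -0.45 to 0.56), with signs that turned as single libraries were left out. *Acot2* and its near-identical neighbour *Acot1* can split reads, so both are uncertain, and *Acot1* had 2.32 ± 0.41 (adjusted p = 0.0122).

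**Figure D3:**
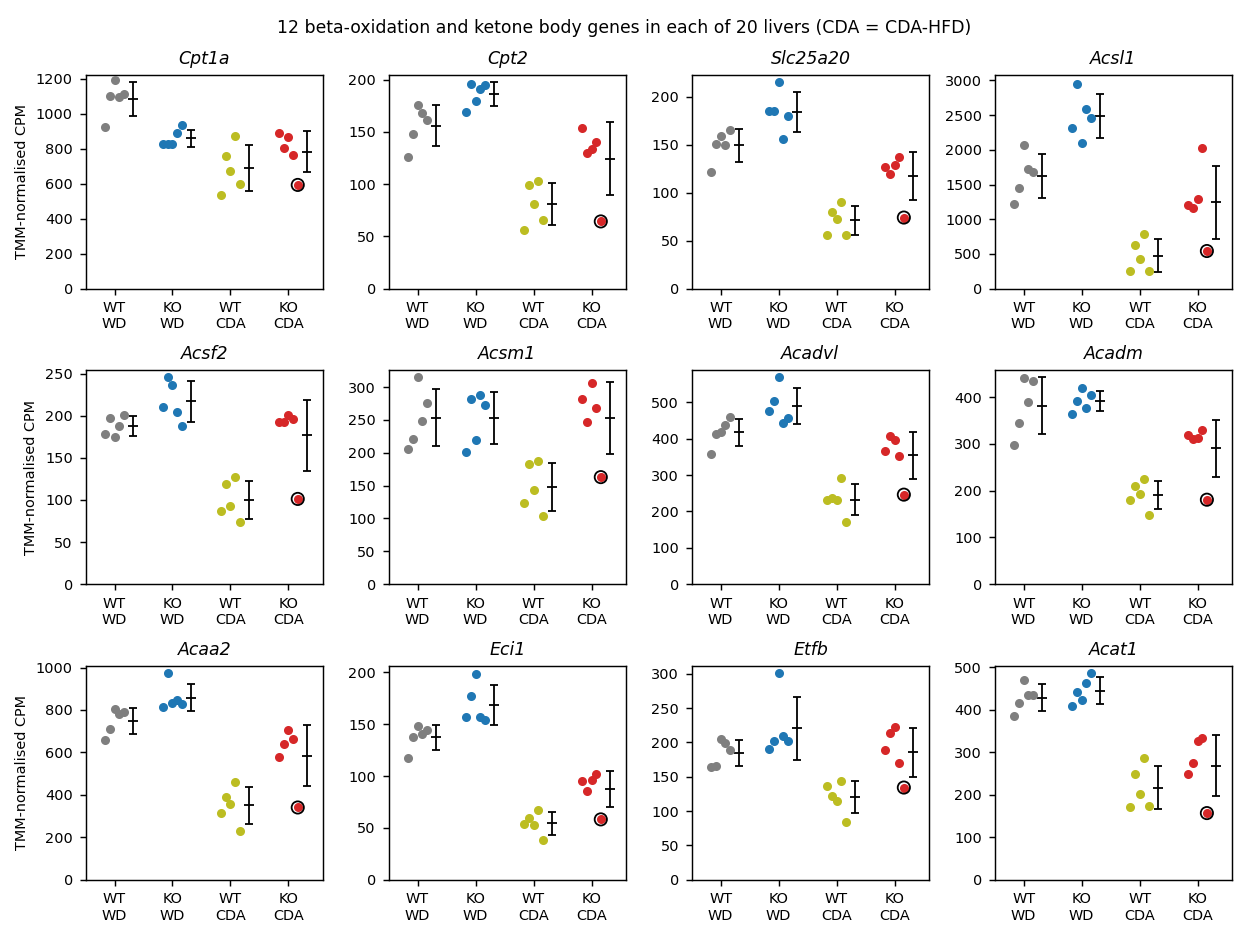
CPM of 12 of the 30 genes in each of the 20 livers, with 1 point per liver, the mean ± SD of each group of 5 beside the points and KO liver 5 on CDA-HFD ringed. On CDA-HFD, KO livers not ringed lay above every WT liver for *Slc25a20*, *Acsl1*, *Acsf2*, *Acsm1*, *Acadvl*, *Acadm*, *Acaa2*, *Eci1*, *Etfb* and *Cpt2*. They overlapped with WT livers for *Cpt1a* and *Acat1*. With the ringed liver included, the groups overlapped for every gene shown. The share of all genes arranged in this way without that liver was not computed, so the arrangement is not read as particular to these genes.

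On WD, none of the 30 genes was called between KO and WT livers, where 12 of all 15848 genes tested were (0.0757%). An unadjusted p under 0.05 was found for 9 of the 30 and for 1674 of all genes tested. The median log2 fold change was 0.12, with 24 of 30 above 0, beside 0.01 for all genes tested. DESeq2 called 2 of the 30, *Acsl1* higher and *Cpt1a* lower, and edgeR without a low count filter called *Acsl1* alone. The macrophage markers had a median of -0.59, with 0 of 12 called (418 to 1338 CPM in WT and 343 to 658 CPM in KO livers), and the 8 hepatocyte markers had a median of 0.15, with 0 called.

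The groups did not overlap on WD for 4 of the 30 genes, all higher in KO livers, where 1.14% of all genes tested were higher without overlap. *Acsl1* read 1214, 1447, 2068, 1719 and 1675 CPM in WT livers and 2318, 2949.9, 2101, 2595 and 2466 CPM in KO livers on WD. *Acsl1* had the lowest adjusted p of the set (0.202), with a log2 fold change of 0.62 ± 0.15. The two-sided exact permutation test gave a p of 0.00794, the smallest that 5 livers against 5 allow. Any gene whose groups do not overlap has that p, so it adds nothing to the lack of overlap. *Acaa2* stood at 656, 711, 804, 779 and 791 CPM in WT livers and 813, 972, 833, 848 and 827 CPM in KO livers on WD. *Acaa2* had 0.20 ± 0.09, with KO liver 2 well above the rest of its group. *Eci1* measured 117, 137, 148, 141 and 144 CPM in WT livers and 157, 177, 199, 157 and 154 CPM in KO livers on WD. *Eci1* had 0.30 ± 0.09, and the gap between the groups was narrow. *Decr1* was the fourth, at 0.20 ± 0.08, and no adjusted p of these 3 was below 0.316. *Cpt1a* came to 922, 1104, 1192, 1096 and 1113 CPM in WT livers and 827, 825, 828, 888 and 934 CPM in KO livers on WD. *Cpt1a* ran the other way, with a log2 fold change of -0.33 ± 0.09 (adjusted p = 0.263) and overlap only between WT liver 1 and KO liver 5.

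Several genes of the set were nearly level on WD. *Acsm1* read 206, 221, 315, 248 and 276 CPM in WT livers and 201, 281, 220.0, 288 and 273 CPM in KO livers on WD. *Acsm1* was mixed in both groups, as was *Acadl*. *Acadl* stood at 239.5, 263, 280.1, 277 and 260.2 CPM in WT livers and 273, 271, 259, 279.8 and 263 CPM in KO livers on WD. *Acadm* measured 296, 345, 441, 390.0 and 435 CPM in WT livers and 365, 392, 419, 378 and 405 CPM in KO livers on WD. *Acadm* reached higher in WT than in KO livers, and all 3 had adjusted p values of 0.920 or more. *Acads* came to 179.5, 198, 184, 190.1 and 189 CPM in WT livers and 195, 209, 273, 172 and 182 CPM in KO livers on WD. *Acads* and *Etfb* each had 1 KO liver, number 3, above all others. *Etfb* read 164, 166, 205, 199 and 189 CPM in WT livers and 189.9, 201, 301, 209 and 202 CPM in KO livers on WD. *Mlycd* stood at 21.9, 22.9, 19.05, 23.7 and 19.97 CPM in WT livers and 27.9, 26.7, 49.04, 23.97 and 22.8 CPM in KO livers on WD. *Mlycd* was also highest in KO liver 3, with a log2 fold change of 0.48 ± 0.19 (adjusted p = 0.406). *Acot2* measured 22.8, 31.5, 16.9, 23.8 and 37.5 CPM in WT livers and 58.9, 32.8, 69.3, 19.2 and 26.1 CPM in KO livers on WD. *Acot2* was widely spread in the KO group, at 0.63 ± 0.35. *Slc25a20* came to 122, 150.3, 159.5, 149 and 166 CPM in WT livers and 185, 185, 215, 156 and 180.4 CPM in KO livers on WD. *Slc25a20* had 0.31 ± 0.10 (adjusted p = 0.326), with KO liver 4 inside the WT range. *Cpt2* read 126, 148, 176, 169 and 162 CPM in WT livers and 169, 196, 179, 191 and 195 CPM in KO livers on WD. *Acsf2* stood at 178, 198, 175, 187 and 201 CPM in WT livers and 211, 246, 237, 205 and 188 CPM in KO livers on WD. *Acadvl* measured 358, 412, 418, 438 and 460.0 CPM in WT livers and 475, 503, 569, 444 and 457 CPM in KO livers on WD. *Cpt2*, *Acsf2* and *Acadvl* each had most KO livers at or above the top of the WT range, with some overlap. *Acsl5* came to 631, 708, 618, 619.8 and 573 CPM in WT livers and 669, 523, 605, 427 and 528 CPM in KO livers on WD. *Acat1* read 384, 417, 471, 436 and 435 CPM in WT livers and 409, 443, 422, 463 and 488 CPM in KO livers on WD. *Acsl5* was lower in some KO livers, *Acat1* was mixed, and neither passed.

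Whether the KO effect differed by diet was tested as an interaction, and 0 of the 30 genes were called, where 0.567% of all 17804 genes tested were called. The median difference was 0.38, with 28 of 30 above 0 (all genes tested, 0.02). An unadjusted p under 0.05 was found for 12 of the 30 and for 2719 of all genes tested. DESeq2 called 0 of the 30, beside 434 of all genes tested. *Acsm1* had the smallest adjusted p (0.167), with a difference of 0.78 ± 0.25 on the log2 scale. *Acsl1* had 0.78 ± 0.44 and *Acsf2* 0.62 ± 0.23. *Acot2* and *Mlycd* were the genes with a difference below 0, at -0.57 ± 0.44 and -0.09 ± 0.25. Without KO liver 5 on CDA-HFD, 9 of the 30 were called (*Cpt1a*, *Acsf2*, *Acsm1*, *Acadm*, *Acadl*, *Acad11*, *Hadh*, *Hadha* and *Acaa2*), with a median difference of 0.50, where 11.7% of all 17995 genes tested were called. *Cpt1a* then differed by 0.61 (adjusted p = 0.0275), and with all livers by 0.52 ± 0.19 (adjusted p = 0.201).

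The comparisons of CDA-HFD with WD use the same livers as those above, so their values are given beside them and not as further evidence. In WT livers, 28 of the 30 genes fell on CDA-HFD and 0 rose, where 25.1% of all 16726 genes tested were called lower, and the median log2 fold change was -0.97 (all genes tested, 0.00). For each of those 28 genes the WT livers of the diets did not overlap, where 17.8% of all genes tested were lower without overlap. In KO livers, 19 fell and 0 rose, where 7.84% of all 16387 genes tested were called lower, with a median of -0.54, and 21 of the 30 were lower without overlap (7.14% of all genes tested). Without KO liver 5, 21 fell and the median was -0.42, where 8.38% of all 16555 genes tested were called lower. Scaling by library size alone moved the median of all genes by 0.42 in WT and 0.25 in KO livers for the diets, and by -0.19 for KO against WT on CDA-HFD, and the median of the 30 genes then was -0.56, -0.32 and 0.33. With that scaling the 10681 calls over all genes in WT livers split into 9111 higher and 1570 lower, in place of 4330 and 4206, the 3905 calls in KO livers into 3352 and 553, in place of 1500 and 1284, and the 1664 calls for KO against WT on CDA-HFD into 506 and 1158, in place of 1374 and 1237.

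**Figure D4:**
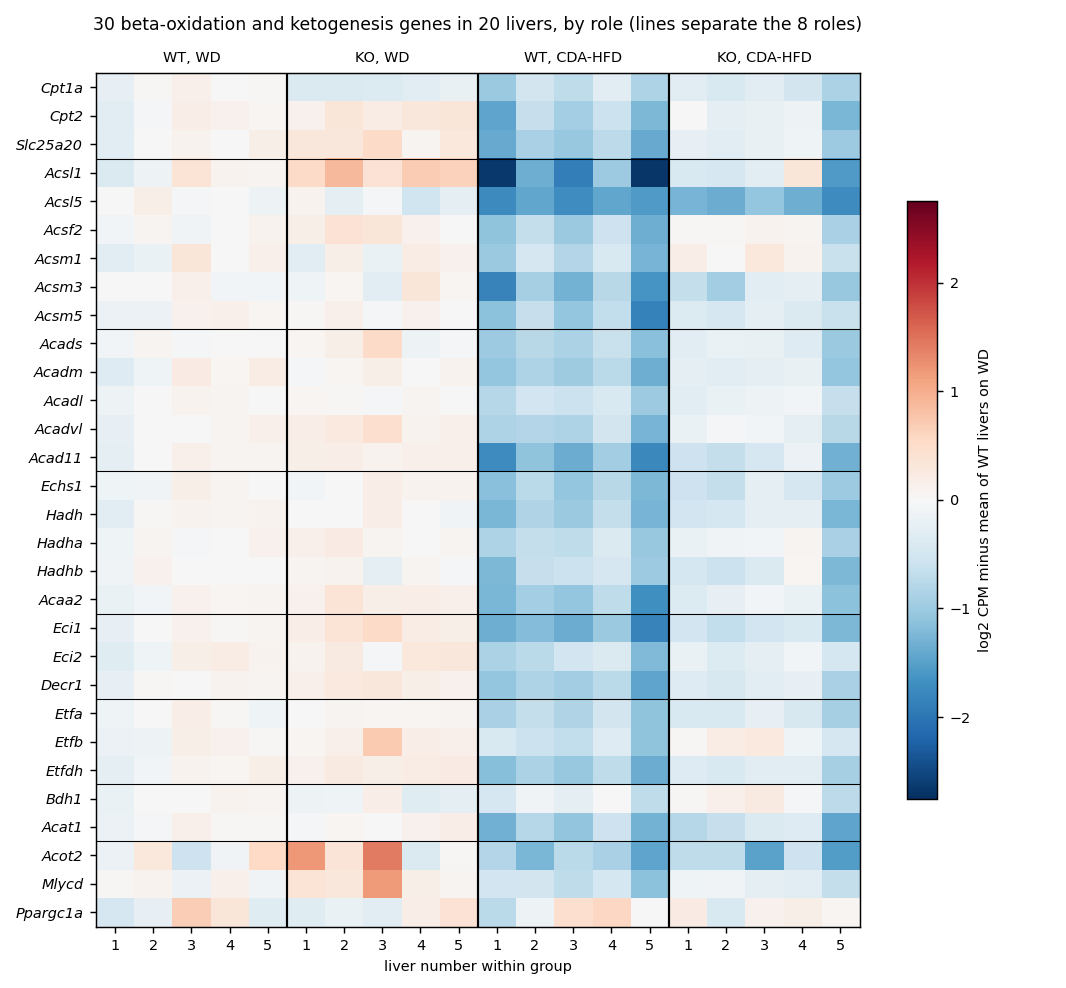
Log2 CPM (with 0.5 added) of the 30 genes in the 20 livers, minus the mean of the 5 WT livers on WD, with genes as rows grouped by role and livers as columns. The median over the 30 genes was -1.28 to -0.60 in WT livers on CDA-HFD, -0.42 to -0.21 in KO livers 1 to 4 and -0.96 in KO liver 5.

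*Acsl1* and *Acsl5*, the long-chain synthetases, fell furthest in WT livers, by 1.79 ± 0.32 and 1.58 ± 0.11 on the log2 scale (adjusted p = 0.000707 and 3.72e-06). *Acsl5* stood at 186, 234, 192, 232 and 215 CPM in WT livers and 260.3, 243, 299, 246 and 190.3 CPM in KO livers on CDA-HFD. Every liver on CDA-HFD had less *Acsl5* than any liver on WD. In KO livers *Acsl5* fell by 1.16 ± 0.15 and *Acsl1* by 1.01 ± 0.27. *Acot2* measured 14.3, 10.4, 15.04, 13.6 and 9.01 CPM in WT livers and 15.5, 15.4, 8.83, 16.96 and 8.44 CPM in KO livers on CDA-HFD. *Acot2* fell furthest in KO livers, by 1.67 ± 0.35 (adjusted p = 0.0114), and by 1.10 in WT livers. *Acad11* and *Eci1* fell by 1.36 and 1.35 in WT and by 0.74 and 0.96 in KO livers.

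Some genes fell in WT livers and did not pass in KO livers. *Acsm1* fell by 0.78 ± 0.18 in WT livers and had -0.00452 ± 0.17 in KO livers. *Cpt1a* fell by 0.66 ± 0.14 and had -0.14 ± 0.13 in KO livers, and *Etfb* fell by 0.62 ± 0.13 and had -0.26 ± 0.16. The test of each such difference is the interaction above, which none of the 30 passed with all livers. *Bdh1* and *Ppargc1a* were the exceptions to the fall in WT livers, at -0.30 ± 0.13 (adjusted p = 0.0708) and 0.03 ± 0.27. Of the 30 genes, 28 had a KO mean on CDA-HFD between the WT mean on CDA-HFD and the WT mean on WD. The share over all genes was not computed. The KO and diet differences both use the WT mean on CDA-HFD, so this count is not further evidence. Markers moved with diet too. In WT livers, 9 of 10 stellate cell, 8 of 8 cholangiocyte and 4 of 7 lymphocyte markers tested rose, 6 of 12 macrophage markers rose and 2 fell, 5 of 8 endothelial markers fell, 5 of 8 hepatocyte markers fell and 1 rose, and the hepatocyte markers had a median of -0.62. In KO livers, 3 of 10 stellate cell, 4 of 7 cholangiocyte, 5 of 12 macrophage and 3 of 5 lymphocyte markers tested rose, and 0 endothelial and 0 hepatocyte markers passed, with a hepatocyte median of -0.14. Without KO liver 5, 2 of 10 stellate cell markers and 1 of 8 hepatocyte markers rose, the other counts were as before, and the hepatocyte median was -0.03. Of all genes tested with diet, 25.9% were called higher and 25.1% lower in WT livers. In KO livers the shares were 9.15% and 7.84%, and without KO liver 5 they were 9.10% and 8.38%. The part of cell composition in the diet comparisons was not tested.

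Levels between genes were compared only per length, as CPM per kb of all annotated exons of a gene. In WT livers on WD *Acaa2* was highest, at 494 ± 41.5 CPM per kb (SD, n = 5), and it stayed highest of the 30 in all 4 groups, at 231 ± 57.0 in WT and 386 ± 95.4 in KO livers on CDA-HFD. *Acot2* (12.1 ± 3.66), *Mlycd* (7.25 ± 0.659) and *Ppargc1a* (3.43 ± 1.25) were lowest in WT livers on WD. The ranges of *Mlycd* (6.42 to 7.98) and *Acot2* (7.71 to 17.1) overlapped, and that of *Ppargc1a* (2.35 to 5.31) overlapped neither. The order of the genes between them depends on which transcripts are counted into the length, and with the length of the principal transcript, known for 26 of the 30, the same genes were highest and lowest.

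Beyond the 30 genes, 36 other genes of beta-oxidation and ketogenesis were listed, of which 30 were tested. Of these, 10 rose and 1 fell in KO livers on CDA-HFD, with a median of 0.47, and 0 passed on WD. On CDA-HFD, 20 rose and 4 fell without KO liver 5. Of all genes tested, 7.99% were called higher on CDA-HFD and 7.19% lower, and 19.5% and 21.8% without KO liver 5. With diet, 25.9% were called higher and 25.1% lower in WT livers, and 9.15% and 7.84% in KO livers. The interaction called 0.567%, and 11.7% without KO liver 5. The same shares hold for the next lists. *Hsd17b10*, a hydroxyacyl-CoA dehydrogenase for branched chains and the smallest adjusted p of that list, rose by 0.84 ± 0.14 in KO livers on CDA-HFD (adjusted p = 0.0108), and was the 1 gene of the list called for a different KO effect between diets (1.00 ± 0.21, adjusted p = 0.0364). That call was lost in 14 of 20 fits that left out 1 liver, with adjusted p values of 0.00630 to 0.0904 over the 20 and differences of 0.89 to 1.11, and without KO liver 5 the list had 6 calls. *Hsd17b10* read 37.02, 49.8, 37.9, 47.98 and 33.8 CPM in WT and 81.3, 60.9, 90.5, 73.8 and 64.2 CPM in KO livers on CDA-HFD, without overlap. From WD to CDA-HFD, 23 of the 30 fell and 4 rose in WT livers, with *Acacb*, which makes malonyl-CoA at the mitochondrion, at the smallest adjusted p (log2 fold change -3.52 ± 0.16, adjusted p = 2.30e-07). In KO livers 18 fell and 0 rose, led by *Acot13* (-0.96 ± 0.11, adjusted p = 0.000306). *Cpt1b*, the muscle form of the palmitoyltransferase, was near 0, at 0 to 1.09 CPM over all 20 livers, and was not tested.

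Among 22 regulators of fatty acid oxidation, 5 rose and 1 fell in KO livers on CDA-HFD, led by *Foxa2*, a hepatocyte transcription factor (1.61 ± 0.23, adjusted p = 0.00769), and 0 passed on WD, where *Creb3l3* had the smallest adjusted p (0.242). On CDA-HFD, 11 rose and 2 fell without KO liver 5, where 19.5% of all genes tested were called higher and 21.8% lower. *Ppara* read 236, 440.5, 311, 403 and 322 CPM in WT and 569, 536, 609, 528 and 293 CPM in KO livers on CDA-HFD. KO livers 1 to 4 lay above every WT liver, and its log2 fold change of 0.56 ± 0.22 did not pass (adjusted p = 0.101), while without KO liver 5 it was 0.71 ± 0.17 and passed (adjusted p = 0.00670). *Ppara* fell from WD to CDA-HFD by 1.48 ± 0.18 in WT and by 0.81 ± 0.19 in KO livers. *Pdk4*, a PPARα target that spares pyruvate, passed in none of the 5 comparisons with all livers and had -0.05 ± 0.45 on CDA-HFD, and without KO liver 5 its log2 fold change there was -0.74 ± 0.25 and passed (adjusted p = 0.0335). Of the 22, 14 fell and 1 rose with CDA-HFD in WT livers, led by *Foxa2* (-1.56 ± 0.16, adjusted p = 2.43e-05), and 4 fell and 1 rose in KO livers, led by *Ppargc1b* (-1.002 ± 0.16, adjusted p = 0.00210). No regulator was called for the interaction, where *Foxa2* had the smallest adjusted p (0.115), and 5 were called without KO liver 5, *Foxa2* (adjusted p = 0.0122) and *Ppara* (adjusted p = 0.0253) among them. The share of all genes called was then 11.7%.

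The 18 genes of the tricarboxylic acid cycle, which burns the acetyl-CoA from beta-oxidation, were listed as well. In KO livers on CDA-HFD 4 rose and 0 fell, 18 of 18 were above 0, and the median was 0.32. *Sdha* had the smallest adjusted p (0.56 ± 0.14, adjusted p = 0.0268). On WD 0 passed, where *Sdhb* had the smallest adjusted p (0.642), and 0 passed for the interaction, led by *Dlst* (0.102). With KO liver 5 left out, 15 rose on CDA-HFD and 9 were called for the interaction. Of all genes tested, 19.5% were then called higher on CDA-HFD and 11.7% for the interaction. From WD to CDA-HFD, 16 of 18 fell in WT livers and 9 fell and 1 rose in KO livers, with *Suclg2* at the smallest adjusted p in both (-1.16 ± 0.12 and -0.66 ± 0.13, adjusted p = 2.63e-05 and 0.00626).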

How the data were processed

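The authors deposited 1 table of whole-number read counts per gene, not normalized, for 20 livers (5 in each of 4 groups); the submitters' processing notes name mm10, and the aligner, the counter and whether strand was used are not given in the sources used here. Read depth was 11697049 to 16827147 reads on genes. The 5 rows of unassigned reads (50.3% to 57.0% of all) were left out. Genes passing filterByExpr were tested with edgeR 4.0.16 (TMM, robust quasi-likelihood F-test) in R 4.3.3, between the 2 groups compared or, for the interaction, in all 4, with Benjamini-Hochberg adjustment over all genes tested and calls at 0.05. The script was tested on simulated data. Alternatives were DESeq2 1.42.0, scaling by RLE size factors or by library size alone, no filter, at least 10 counts in every library, 1 fit of all livers, a replicate block and leaving out each liver. Intervals cover 95%.

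Members and lists were chosen with earlier results of these data known. Every liver's value is given for the gene with the smallest adjusted p on CDA-HFD in each of 8 roles, the study's qPCR genes, and the 2 largest rises and falls called with diet; *Acsm5*, *Decr1* and the nearly level genes on WD were named after their values were seen, and the GC box search, the half-site stretches, principal transcript lengths and the fits of the other lists and markers without KO liver 5 were added after seeing the data. Livers differed from one another by more than counting noise (chi-square per gene 6.94 to 123.8 over 40 pairs of a group). Protein sequences were not used here, and some genes of the other lists are not reported here by name.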

Additional observations from a re-analysis of the deposited data

Results flagged for a closer look

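Among 33 genes in 4 groups, a single liver stood far from the other 4 of its group in 13 of 132 groups, by the gap to its nearest neighbour as a share of the group's range, where chance gives about 6.6 (5%). KO liver 5 on CDA-HFD accounted for 7 of the 13, each time as the lowest. Its gap was 0.912 of the range for *Acsf2* (101 CPM, others 192 to 201), 0.867 for *Acadm* (181 CPM, others 309 to 329), 0.773 for *Etfdh*, 0.743 for *Ppara*, 0.734 for *Cpt2* (64.3 CPM, others 129.9 to 154), 0.731 for *Acads* and 0.720 for *Slc25a20*. WT liver 1 on WD was lowest for *Hadh* (gap 0.794) and *Decr1* (0.726). On WD, KO liver 3 was highest for *Etfb* (gap 0.830) and *Mlycd* (0.803; 49.0 CPM, others 22.8 to 27.9), KO liver 2 was highest for *Acaa2* (0.780) and KO liver 1 was lowest for *Etfa* (0.792).

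The KO effect on *Hsd17b10* differed between the diets by 0.998 ± 0.21 on the log2 scale in the interaction test of edgeR (adjusted p = 0.0364). The call was lost in 14 of 20 fits that left out 1 liver (differences of 0.89 to 1.11).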

How the results depend on the processing

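The median log2 fold change of the 30 genes kept its sign in all 5 comparisons under the alternatives run, while counts of calls moved. Calls on WD numbered 2 with DESeq2 and 1 without a filter. On CDA-HFD they numbered 7 with library size only, 19 with DESeq2, 21 with all 20 livers in 1 fit, and 0 to 25 when 1 liver was left out. The interaction gave 0 to 9 calls as 1 liver was left out. Over all genes, such fits gave 680 to 7178 calls on CDA-HFD and 35 to 2100 for the interaction. In KO livers, diet gave 12 calls with library size only, beside 3905 over all genes. The cause of these shifts was not tested.

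Signs turned with library size only for *Cpt1a* (-0.012) and *Acot2* (-0.16) on CDA-HFD, *Bdh1* with diet in WT livers (0.12), and *Cpt1a* (0.095) and *Acsm1* (0.22) with diet in KO livers. *Acsm1* in KO livers was also at 0.012 with 10 counts required in every library and 0.0037 with all livers in 1 fit. With 1 liver left out, values on CDA-HFD ran from -0.048 to 0.18 for *Acot2*, -0.23 to 0.080 for *Ppargc1a* and -0.74 to 0.14 for *Pdk4*. The interaction of *Mlycd* ran from -0.20 to 0.15, and the diet change of *Ppargc1a* in WT livers from -0.11 to 0.24. In KO livers with diet the ranges were -0.091 to 0.12 for *Acsm1*, -0.0055 to 0.21 for *Bdh1* and -0.024 to 0.18 for *Ppargc1a*. Of 1336 alternative values of 75 single-gene results, 1135 kept direction and side of the threshold, 112 lost the call, 55 gained it and 34 changed sign, each without a test of the cause.

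With the replicate number as a block, 18 of the 30 were called on CDA-HFD, beside 2387 of all 17204 genes tested. Between livers that share a number, residuals correlated at -0.37 to 0.35. Livers with different numbers were not compared in this way, so these values cannot decide whether the number marks a shared batch.

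Over all genes, DESeq2 called 164 on WD, 4144 on CDA-HFD and 434 for the interaction, in place of 12, 2611 and 101. Without a filter 46 were called on WD and 58 for the interaction, with the block 6 and 63, with library size only 1664 on CDA-HFD and 47 for the interaction, and with all livers in 1 fit 26 on WD, 4163 on CDA-HFD and 4451 with diet in KO livers, in place of 2784.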
